A study of Mus musculus with 714 samples.

Results

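The enzymes described here handle foreign compounds and reactive small molecules: cytochrome P450s, flavin monooxygenases, alcohol and aldehyde dehydrogenases, aldo-keto and carbonyl reductases, epoxide hydrolases, carboxylesterases, UDP-glucuronosyltransferases, glutathione S-transferases, sulphotransferases, quinone reductases and glutathione peroxidases. They were taken by gene name from a table of 12479 gene rows: all rows named Cyp or Cbr or Ces with a digit, and all rows named Ugt, Gst, Akr, Sult, Aldh, Adh, Fmo, Ephx, Gpx or Nqo, leaving out Aldh1a1 and Adh1. The 9 Ugt1a rows that the names took share their last exons and therefore their reads, and these were counted as 1 signal. The members were then 110 genes of the families, 6 pseudogene rows, the antisense row Cyp4x1os, and Fmod, which has the letters of the flavin monooxygenases but encodes fibromodulin, a matrix protein, together 0.946% of the rows. Counts were few for most members: 20 had at least 100 counts over all cells, 19 had 20 to 99, and 79 had fewer than 20.

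The study measured RNA in 714 single cells of ICR mouse uterus at birth (pnd0) and on postnatal days 7, 14, 28 and 56 (pnd7 to pnd56), sorted as positive for CD326, the protein of the epithelial gene Epcam, and prepared by CEL-seq, which counts the 3′ ends of transcripts. No treatment or genotype separated the ages. No label names an animal, so each age is 1 sample, no test was made, and a level is the sum of a gene's counts over the cells of an age per 1000000 counts of all genes (CPM) with an exact Poisson 95% interval. Such intervals cover counting error only. Counts of 3′ ends are not divided by gene length, so levels are compared between ages within a gene, and a gene is said to lead a family by its counts.

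Enzymes of the first phase of drug metabolism, the P450s, flavin monooxygenases, reductases, dehydrogenases and hydrolases, add or expose a reactive group on a molecule. Enzymes of the second phase then join it to glucuronic acid, glutathione or sulphate, which makes it easier to excrete. Glutathione peroxidases use the same glutathione pool to remove peroxides, and several reductases and dehydrogenases act on the body's own steroids, prostaglandins and retinoids, which makes the families relevant to a tissue under ovarian hormones.

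The ages held 24.2%, 37.4%, 24.2%, 7.84% and 6.30% of the 714 cells from pnd0 to pnd56 and 582615, 732957, 354047, 96248 and 81894 counts. The median per cell went from 3037 counts at pnd0 to 1600 at pnd28 and 1670 at pnd56. The floor used for a gene with no count at an age was the level of 3 counts, 5.15 CPM at pnd0 and 36.6 CPM at pnd56. The title numbers fall into 10 runs of 96, which the labels do not explain: 2 runs at pnd0, 3 at pnd7, 3 at pnd14 and 1 each at pnd28 and pnd56, so age and run cannot be told apart. Of 8 epithelial markers, Epcam lay at 374, 293, 373, 312 and 769 CPM from pnd0 to pnd56 and Krt18 at 3602 to 5278 CPM, while Krt8, Krt19 and Cldn4 had 11 to 23 counts in all. The list was not steady: of 5 markers measured, 1 was at least 2-fold higher and 1 lower at pnd14 over pnd7. The same counts held at pnd28 over pnd14, and 1 was higher and 0 lower at pnd56 over pnd28. The stroma list, 7 of 8 genes with a row, made up 0.00395% of counts at pnd0, 0.0765% at pnd14, 0.332% at pnd28 and 0.286% at pnd56, with Dcn at 1984 CPM at pnd28. The smooth muscle list, 4 of 8 genes with a row, held 0.281% of counts at pnd14 against 0.00687% at pnd0, the immune list 0.00292% to 0.0436%, and the erythroid list 1.34% at pnd0 against at most 0.0311% later.

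The members together made up 0.675% of all counts at pnd0, 0.712% at pnd7, 1.08% at pnd14, 1.91% at pnd28 and 2.28% at pnd56. Their summed level was thus 3.38-fold higher at pnd56 than at pnd0 (log2 1.76, 95% interval 1.68 to 1.84). The 3 runs of pnd14 lay at 10158 to 11787 CPM, above the 6501 to 8308 CPM of the 5 earlier runs and below the single runs of pnd28 and pnd56. Between them, Cbr2, Gpx1, Gpx3 and Gsto1 held this difference. The sum of these 4 genes, singled out after their values were seen, was 1871, 1879, 4132, 13341 and 18365 CPM from pnd0 to pnd56, 9.82-fold apart at the ends. The sum of all other members was 4878, 5239, 6632, 5766 and 4469 CPM, with a log2 ratio of pnd56 over pnd0 of -0.13 (-0.29 to 0.03).

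**Figure D1:**
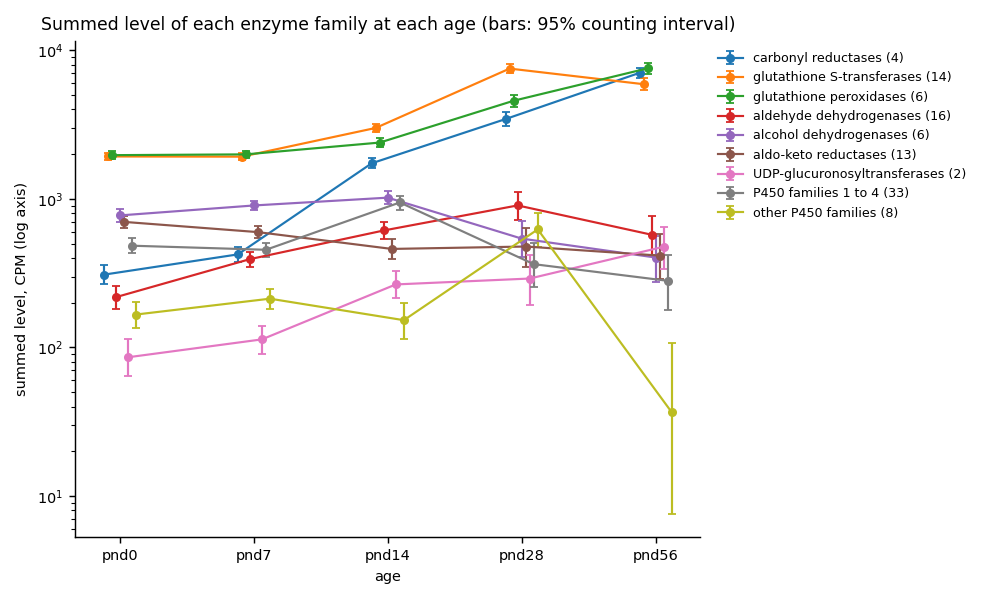
Summed level of each enzyme family in CPM on a log axis at the 5 ages, with the number of members of each family in brackets; bars are 95% counting intervals. Carbonyl reductases went from 309 CPM at pnd0 to 7058 CPM at pnd56, while alcohol dehydrogenases were lower at pnd56 than at pnd0.

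Because these 4 genes carried the difference, the 250 bases before their RefSeq start sites are printed here (build GRCm38.p6, 5′ to 3′ on the gene's strand). The deposited values rest on an older build, mm9, so no position is carried over to them. Cbr2 lies on chromosome 11, minus strand (chr11:120732022-120732271), Gpx1 on chromosome 9, plus strand (chr9:108338830-108339079), Gsto1 on chromosome 19, plus strand (chr19:47854723-47854972), and Gpx3 on chromosome 11, plus strand (chr11:54902604-54902853). Capitals mark a match to GCGTG, the core letters bound by the aryl hydrocarbon receptor.
Cbr2: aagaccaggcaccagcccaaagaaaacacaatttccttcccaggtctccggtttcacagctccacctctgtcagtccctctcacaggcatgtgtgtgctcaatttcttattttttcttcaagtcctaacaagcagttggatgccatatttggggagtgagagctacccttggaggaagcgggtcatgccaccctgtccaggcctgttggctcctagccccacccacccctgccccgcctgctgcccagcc
Gpx1: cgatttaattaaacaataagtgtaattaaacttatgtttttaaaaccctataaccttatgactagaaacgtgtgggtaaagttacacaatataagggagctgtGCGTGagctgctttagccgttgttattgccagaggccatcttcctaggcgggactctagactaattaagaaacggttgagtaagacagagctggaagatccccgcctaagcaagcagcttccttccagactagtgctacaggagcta
Gsto1: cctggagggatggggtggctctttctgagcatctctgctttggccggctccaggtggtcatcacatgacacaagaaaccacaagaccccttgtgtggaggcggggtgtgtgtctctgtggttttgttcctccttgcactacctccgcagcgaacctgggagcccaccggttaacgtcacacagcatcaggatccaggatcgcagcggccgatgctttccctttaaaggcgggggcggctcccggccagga
Gpx3: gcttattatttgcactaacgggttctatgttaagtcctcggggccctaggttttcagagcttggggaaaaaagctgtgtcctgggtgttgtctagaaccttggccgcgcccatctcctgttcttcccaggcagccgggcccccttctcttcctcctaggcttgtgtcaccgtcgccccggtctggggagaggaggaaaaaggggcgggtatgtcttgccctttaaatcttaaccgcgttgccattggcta
The base composition differed among them, with 55.6% G and C for Cbr2, 42% for Gpx1, 60% for Gsto1 and 55.2% for Gpx3. Gpx1 held GCGTG once, and the other 3 did not hold it in this window on either strand.

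RefSeq promoters matched 77.8% of the rows named by the rule, and 42 of the rows with at least 20 counts. Both strands of the 250 bases were searched for 4 motifs, whose matches may overlap. GCGTG was found in 16 of the 42 (38.1%) and in 30.9% of 27025 genes. Here the Ugt1a rows, which share reads, entered the 42 separately and not as 1 signal. Ugt1a5 and Ugt1a8 are among the 16. TGACNNNGC, the antioxidant response element read by NRF2, was found in 4 of the 42 (9.52%; Aldh1a2, Aldh9a1, Gsta3 and Gstm5) and in 11.5% of genes. The oestrogen response element, and the element shared by the progesterone and glucocorticoid receptors, were found in 0 of the 42 and in 0.0666% and 0.440% of genes. These shares are a description with no test, and a missing match says only that the letters are not in this window.

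Among the carbonyl reductases, which reduce ketones, aldehydes and quinones, Cbr2, known from the mouse lung, was the gene with the widest range over the ages. Its level was 32.6 CPM at pnd0 (19.6 to 50.9), 68.2 at pnd7 (50.6 to 89.9), 1474 at pnd14 (1351 to 1606), 3252 at pnd28 (2902 to 3633) and 6826 at pnd56 (6272 to 7416). Each age lay above the one before it, and the interval of each step's ratio left out equal levels. The CPM intervals of pnd0 and pnd7 overlapped slightly, and those of the later neighbours did not. The levels of the first 2 ages rest on 19 and 50 counts. By run, Cbr2 was at 20.3 and 45.3 CPM at pnd0, at 69.8, 58.4 and 73.9 at pnd7, and at 1199, 903.2 and 1960 at pnd14, so the runs of these ages did not overlap. The log2 ratio was 4.43 (4.01 to 4.88) for pnd14 over pnd7, a 21.6-fold difference, and 7.71 (7.05 to 8.45) for pnd56 over pnd0, 209.3-fold. The steps from pnd0 to pnd7 (1.06), pnd14 to pnd28 (1.14) and pnd28 to pnd56 (1.07) were close to 2-fold, and each was under 2-fold with some alternative settings, with lowest values of 0.59, 0.95 and 0.94.

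A Cbr2 count was present in 4.05% of cells at pnd0, 10.1% at pnd7, 57.2% at pnd14, 83.9% at pnd28 and 80% at pnd56. With every cell thinned to 1500 counts, which leaves out 9, 13, 60, 23 and 20 cells from pnd0 to pnd56, the shares were 3.05%, 7.48%, 59.3%, 93.9% and 72%. Levels were uneven among cells: at pnd56 the median cell held 5 Cbr2 counts and the highest 69, which were 12.3% of the age's Cbr2 counts. At pnd28 the 13 cells with at least 3 counts of smooth muscle markers held Cbr2 in 92.3% of cells and at 2994 CPM, and the other 43 in 81.4% and at 3329 CPM (log2 ratio -0.15, -0.57 to 0.24), with median depths of 1609 and 1600 counts. The share of cells with a count at pnd28 is therefore not read as a share of cells that expressed the gene. At pnd14 the 44 cells with smooth muscle counts held 799.1 CPM of Cbr2 and the others 1722 (-1.11, -1.48 to -0.75).

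The other 3 carbonyl reductases did not share the pattern of Cbr2. Their sum was 276.3, 355, 262.7, 197.4 and 232.01 CPM from pnd0 to pnd56, with a log2 ratio of pnd56 over pnd0 of -0.25 (-1.02 to 0.44). Cbr1, which reduces quinones and prostaglandins, was at 193.95, 257.9, 155.3, 124.7 and 73.3 CPM, and lower at pnd56 than at pnd0 by a log2 ratio of -1.40 (-2.88 to -0.24) from 6 counts, a difference that was -0.02 after thinning. Cbr3 was at 32.6, 19.1, 48.02, 10.4 and 122.1 CPM on 1 to 19 counts an age, higher at pnd56 than at pnd0 (1.90, 0.64 to 3.08). Cbr4, part of the mitochondrial fatty acid synthesis pathway, stayed between 36.6 and 77.8 CPM with overlapping intervals. Of the last bases of Cbr2 transcripts, 32.96% of the 31-letter words also occur in the annotated gene Gm11771, which has no row in the table.

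**Figure D2:**
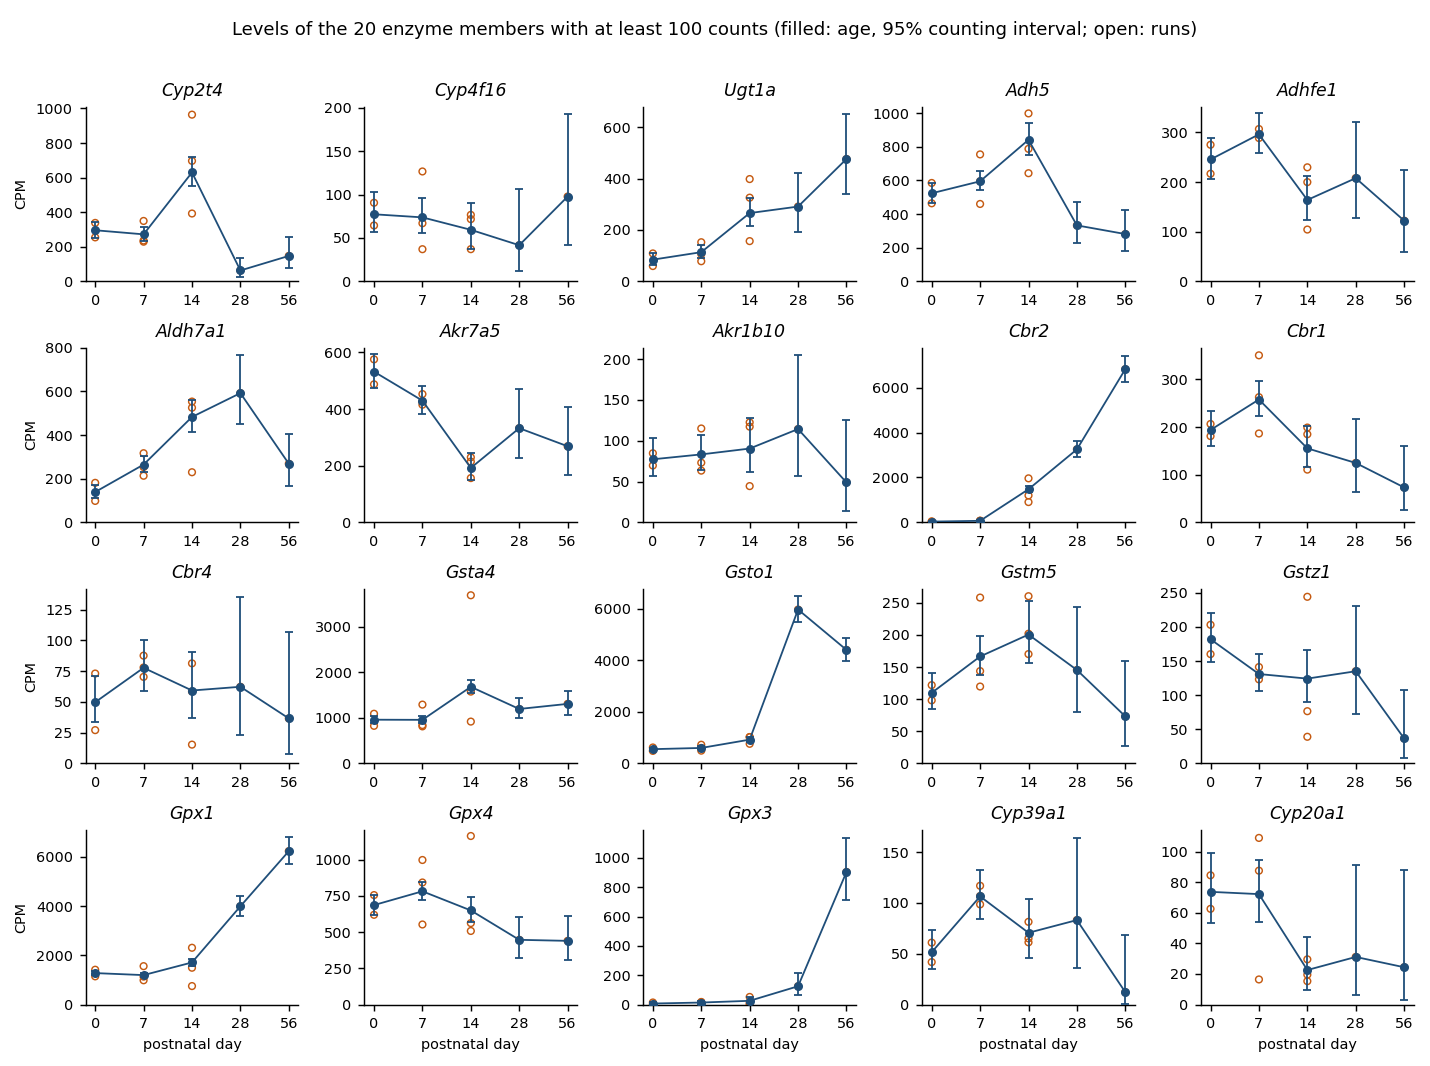
Level in CPM of the 20 members with at least 100 counts at each age in days; filled points are ages, evenly spaced, with 95% counting intervals and open circles are runs. Cbr2, Gpx1, Gpx3, Gsto1 and Ugt1a were highest at pnd28 or pnd56, and Cyp2t4, Adh5 and Gsta4 at pnd14.

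Glutathione peroxidases were measured mainly through Gpx1, Gpx3 and Gpx4. Gpx1, the cytosolic enzyme that removes hydrogen peroxide, was at 1277 CPM at pnd0 (1187 to 1372), 1195 at pnd7 (1117 to 1277), 1709 at pnd14 (1575 to 1851), 3990 at pnd28 (3601 to 4409) and 6228 at pnd56 (5699 to 6792). The first 2 ages were not apart, and each later age lay above the one before. The 3 runs of pnd14 were at 1495, 750 and 2305 CPM, on both sides of the pnd0 runs at 1144 and 1414, while pnd28 and pnd56 lay above every earlier run. The log2 ratio was 1.22 (1.04 to 1.41) for pnd28 over pnd14 and 2.29 (2.12 to 2.45) for pnd56 over pnd0, a 4.88-fold difference. A Gpx1 count was present in 76.3% to 97.8% of cells at the 5 ages.

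Gpx3, the secreted peroxidase found in plasma, was near the limit of counting up to pnd14 and highest at pnd56. It was at 6.87 CPM at pnd0 (1.87 to 17.6), 13.6 at pnd7, 25.4 at pnd14, 124.7 at pnd28 (64.4 to 217.8) and 903.6 at pnd56 (710 to 1134), on 4, 10, 9, 12 and 74 counts. The level at pnd56 stood above all other ages, 131.6-fold above pnd0 (log2 7.04, 5.62 to 8.95) and 7.25-fold above pnd28 (2.86, 1.97 to 3.87). Its counts came from 33.3% of pnd56 cells, with 12 of 74 in the highest cell. The fold over pnd0 rests on 4 counts there, and it stayed between 6.02 and 7.23 on the log2 scale over 9 alternatives.

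Gpx4, the enzyme that removes lipid hydroperoxides, was at 687, 782, 650, 446.8 and 440 CPM. Its levels at pnd28 and pnd56 lay under those of pnd0 and pnd7, and the log2 ratio of pnd56 over pnd0 was -0.64 (-1.18 to -0.15). The direction of this ratio turned at equal depth: it was 0.13 after thinning, and -1.16 with each cell weighted equally. Of its end sequence, 90.2% is shared with the pseudogene Gpx4-ps2. The sum of the peroxidases other than Gpx1 and Gpx3 was 687 CPM at pnd0 and 440 at pnd56. Gpx1 had no word of its end in common with another annotated gene, and Gpx3 1.72%.

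Glutathione S-transferases were led by Gsta4 and Gsto1. Gsto1, an omega-class enzyme that also reduces dehydroascorbate, was at 554 CPM at pnd0 (495.6 to 618), 601.7 at pnd7 (546.8 to 660.5), 924 at pnd14 (826.2 to 1029), 5974 at pnd28 (5496 to 6483) and 4408 at pnd56 (3965 to 4887). The step to pnd28 was 6.47-fold (log2 2.69, 2.50 to 2.89), and pnd28 and pnd56 lay far above all 8 runs of the earlier ages, which ranged from 487.4 to 1026 CPM. Gsto1 had a count in 57.2%, 58.4%, 47.4%, 94.6% and 88.9% of cells. The smooth muscle marker cells of pnd28 held it at 4400 CPM and the others at 6442 CPM, and the 18 cells of pnd28 with at least 3 counts of stroma markers at 6440 CPM and the others at 5727 CPM. Without the stroma marker cells Gsto1 was therefore about as high at pnd28, and the part of free RNA or of other cells in its level was not tested. Cfap43 overlaps Gsto1 on the other strand and has no row.

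Gsta4, which joins glutathione to the lipid peroxidation product hydroxynonenal, was at 959.5 CPM at pnd0, 956.4 at pnd7, 1681 at pnd14, 1195 at pnd28 and 1307 at pnd56. The pnd14 level was the highest, with runs far apart at 1576, 3689 and 918.2 CPM. At pnd56, 55.1% of the Gsta4 counts lay in 1 cell and the share of cells with a count was 26.7%, against 51.8% to 68.8% at the other ages. Gstz1, an enzyme of tyrosine breakdown, was at 181.9, 130.98, 124.3, 135.1 and 36.6 CPM, lower at pnd56 than at pnd0 (log2 -2.31, -4.61 to -0.73) on 3 counts at pnd56. Gstm5 stayed between 73.3 and 200.5 CPM and no neighbouring levels in its order were apart. Without Gsto1 the transferases summed to 1377 CPM at pnd0 and 1514 at pnd56 (0.14, -0.15 to 0.41). Gstp1, an abundant transferase of many epithelia, had 1 count in the table, and 82.1% of its end is shared with Gstp2 and Gstp-ps.

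The UDP-glucuronosyltransferases conjugate bilirubin, steroids and drugs. Their 2 members were the joint Ugt1a signal and 1 further row with fewer than 20 counts. The Ugt1a rows differed from the row with the highest total in at most 9 of 714 cells, except Ugt1a7c, which matched it in 83.3% of cells, so which of the alternative first exons was used cannot be told from these counts. Ugt1a was at 84.1 CPM at pnd0 (62.2 to 111.2), 113.2 at pnd7 (90.2 to 140), 265.5 at pnd14 (214.6 to 325), 291 at pnd28 (193.3 to 420) and 476.2 at pnd56 (339 to 651). Its order followed age, but only pnd14 and pnd7 were apart among neighbours in that order. The log2 ratio of pnd56 over pnd0 was 2.50 (1.86 to 3.14), and that of pnd14 over pnd7 was 1.23 (0.79 to 1.67).

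At pnd14 the Ugt1a counts lay in part in a few cells. The 17 pnd14 cells (9.83%) with at least 5 counts of Ovgp1, the oviductal glycoprotein, held 9.76% of that age's counts and 34 of its 94 Ugt1a counts, at 984 CPM against 187.8 CPM in the other cells (log2 2.39). Without them, the ratio of pnd14 over pnd7 was 0.72 on the log2 scale, the lowest of its alternatives. At pnd0 the 13 cells with a count of Upk3a, a uroplakin of bladder epithelium, held 10 of 49 Ugt1a counts. Close to the limit of the definitions, 3 cells of pnd14 had 5 Ovgp1 counts or 1 fewer, and 3 of the 13 pnd0 cells had 1 Upk3a count.

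**Figure D3:**
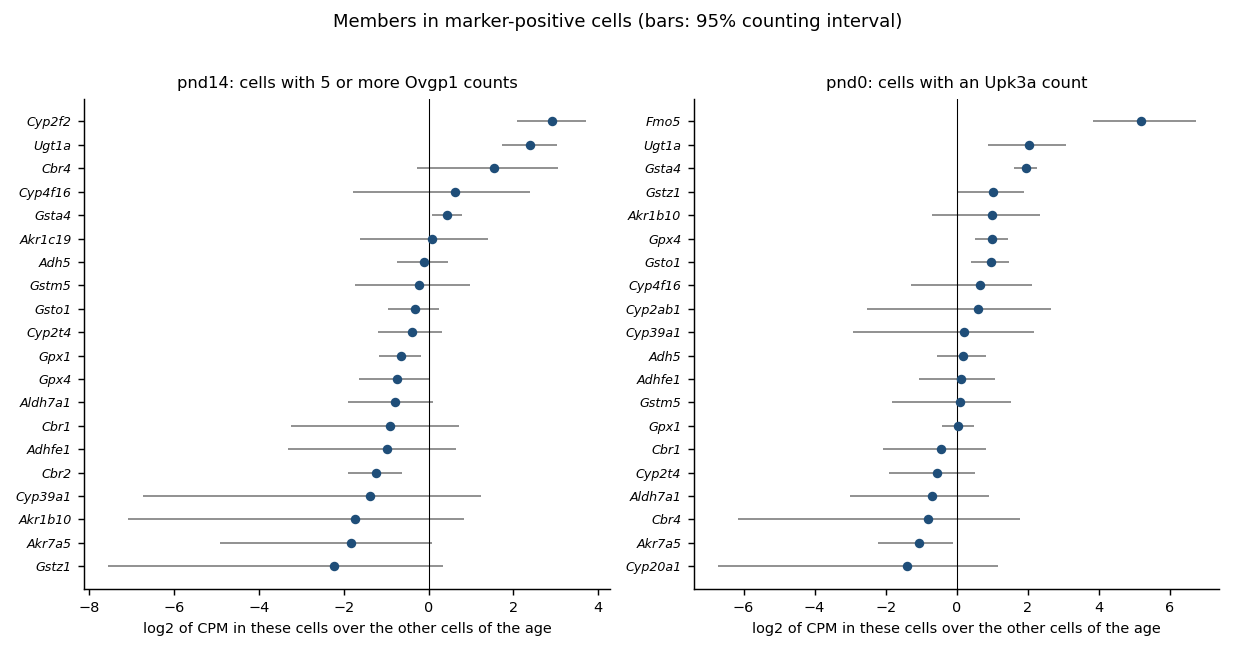
Log2 ratio of each member's CPM in pnd14 cells with 5 or more Ovgp1 counts (left) and pnd0 cells with a Upk3a count (right) over the other cells of the same age; bars are 95% counting intervals. Cyp2f2 and Ugt1a stood highest on the left and Fmo5 on the right, and Cbr2 lay below 0 on the left.

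The P450s of families 1 to 4, which oxidise drugs and fatty acids, had 33 members. Their sum was 484, 454.3, 946.2, 363.6 and 281 CPM from pnd0 to pnd56, highest at pnd14 by a log2 ratio of 1.06 (0.84 to 1.28) over pnd7 and -1.38 (-1.93 to -0.87) for pnd28 over pnd14. Cyp2t4 held 60.99%, 59.8%, 66.6%, 17.1% and 52.2% of the family's counts in order of age. It was at 295 CPM at pnd0 (252.7 to 343), 271.5 at pnd7 (235.1 to 312), 630 at pnd14 (550 to 718), 62.3 at pnd28 (22.9 to 135.7) and 146.5 at pnd56 (75.7 to 255.96). Its pnd14 runs, at 392.1, 964 and 696.8 CPM, all lay above the 228.9 to 349 CPM of the earlier runs, and pnd28 was 10.1-fold lower than pnd14 (log2 -3.34, -4.80 to -2.19). The log2 ratio of pnd56 over pnd0 was -1.01, and 6 of 9 alternatives brought it under 2-fold. Egln2, which overlaps Cyp2t4 on the other strand, had 3 counts in the table.

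Cyp2f2, known from the airway, where it activates naphthalene, had most of its counts at pnd14. It had 3 counts at pnd0, 2 at pnd7, 56 at pnd14, 7 at pnd28 and 0 at pnd56, or 5.15, 2.73, 158.2 and 72.7 CPM at the first 4 ages. All 3 runs of pnd14 held it, at 184.97, 122.5 and 149.8 CPM, and the log2 ratio of pnd14 over pnd7 was 5.86 (3.94 to 8.94). The Ovgp1 cells held 25 of the 56 counts at 724 CPM, against 97.03 CPM in the other pnd14 cells (log2 2.90). Leaving them out kept the pnd14 level at least 2-fold above pnd7, the lowest of 13 alternatives being 4.63. An antisense gene, Gm15883, overlaps Cyp2f2, and the sources used here do not say whether strand was used in counting.

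Among the other P450 families, which act on sterols and retinoids, Cyp26a1 was the gene of pnd28. Cyp26a1, which breaks down retinoic acid, had 4, 17, 13, 36 and 0 counts, or 6.87, 23.2, 36.7 and 374 CPM up to pnd28. The log2 ratio of pnd28 over pnd14 was 3.35 (2.40 to 4.39), and pnd56, with no count, was at least 10.2-fold lower than pnd28 by the 3-count floor. The counting interval of that ratio ended at -2.98 on the log2 scale, and 6 alternatives gave -3.31 to -2.41. These counts came from 12.5% of pnd28 cells, with 10 of 36 in the highest. The family sum followed it, at 152.5, 623.4 and 36.6 CPM at pnd14, pnd28 and pnd56. Stroma marker cells of pnd28 held Cyp26a1 at 389.4 CPM and the other cells at 366 CPM.

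A few other genes of retinoid handling, named after their values were seen, had courses that differed from each other. Aldh1a2, which makes retinoic acid, had 0, 4, 3, 12 and 7 counts, or 124.7 CPM at pnd28, and 1 cell held 7 of its 12 counts there and 1 cell all 7 at pnd56. Dhrs3, a retinaldehyde reductase that is not a member, was at 999, 492.5, 350, 1216 and 207.6 CPM. Aldh1a1, left out by the naming rule, was at 22.3, 171.9, 163.8, 10.4 and 12.2 CPM, and Adh1, also left out, at 204.3, 13.6, 118.6, 62.3 and 122.1 CPM.

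Cyp39a1, an oxysterol hydroxylase of bile acid synthesis, was at 51.5, 106.4, 70.6, 83.1 and 12.2 CPM, with a log2 ratio of 1.05 (0.42 to 1.71) for pnd7 over pnd0 that 6 of 12 alternatives brought under 2-fold. Cyp20a1 was at 73.8, 72.3, 22.6, 31.2 and 24.4 CPM, and its ratio of pnd14 over pnd7 was -1.68 (-2.96 to -0.60), with overlapping runs. Cyp27a1, a mitochondrial sterol hydroxylase, had 13 counts at pnd0 and 13 at pnd28, and 0 at pnd56. Cyp4f16 stayed between 41.6 and 97.7 CPM. Cyp2ab1 had 23, 24, 13, 10 and 0 counts and was 2.83-fold higher at pnd28 than at pnd14 (log2 1.501, 0.15 to 2.80).

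The flavin monooxygenases were represented by 2 genes at low counts. Fmo5 had 23 counts at pnd0, 2 at pnd7 and 0 at the later ages, a log2 ratio of -3.85 (-6.98 to -1.84) for pnd7 over pnd0. Of the 23, 16 lay in the 13 Upk3a cells, a log2 ratio of 5.19 over the other pnd0 cells. With those cells left out the ratio was -2.23, on too few counts for the 20-count minimum. The same 13 cells held 19.3% of the Gsta4 counts of pnd0, at 3156 CPM against 822 CPM. Fmo1 had 6 counts each at pnd14 and pnd28.

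The alcohol dehydrogenases were lower at the late ages. Adh5, which oxidises formaldehyde bound to glutathione and reduces S-nitrosoglutathione, was at 524 CPM at pnd0 (466.4 to 585.7), 594.9 at pnd7 (540 to 653), 842 at pnd14 (749 to 942.9), 332.5 at pnd28 (227.4 to 469.4) and 281 at pnd56 (178.03 to 421.4). It was highest at pnd14 and 2.53-fold lower at pnd28 (log2 -1.34, -1.91 to -0.81). The share of cells with a count was 58.4% to 63.7% up to pnd14 and 30.4% and 26.7% afterwards. After thinning it was 42.7%, 49.2%, 59.3%, 24.2% and 32%. Adhfe1, a mitochondrial transhydrogenase of hydroxy acids, was at 245.4, 296, 163.8, 207.8 and 122.1 CPM, with a ratio of pnd56 over pnd0 of -1.01 (-2.10 to -0.09) that 6 of 9 alternatives brought under 2-fold.

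Aldehyde dehydrogenases summed to 217.98, 392.9, 613, 903.9 and 573.9 CPM. Aldh7a1, which acts in lysine breakdown and on lipid aldehydes, was at 139.03 CPM at pnd0 (110 to 172.8), 264.7 at pnd7 (228.7 to 305), 482.99 at pnd14 (413.3 to 561.1), 592.2 at pnd28 (448.5 to 767.3) and 269 at pnd56 (168.4 to 406.7). The levels rose in order of age up to pnd28, but pnd28 and pnd14 were not apart (log2 0.29, -0.16 to 0.73). The ratio of pnd14 over pnd7 was 0.87 (0.56 to 1.17), with overlapping runs. At pnd56 the level was 2.20-fold lower than at pnd28 (log2 -1.14, -1.92 to -0.41). That ratio was -0.82 when the cell with the most counts was left out. Phax, on the other strand of the same place, was at 190.5, 264.7, 172.3, 0 and 170.95 CPM, a different course. Aldh9a1, which makes a precursor of carnitine, had 17, 54, 16, 3 and 6 counts and was 2.52-fold higher at pnd7 than at pnd0, with overlapping runs.

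Aldo-keto reductases summed to 700, 597.6, 460, 477.9 and 415.2 CPM, with a log2 ratio of pnd56 over pnd0 of -0.75 (-1.30 to -0.25) that was -0.04 after thinning. These sums include the Akr1c19 row, at 138.4 CPM at pnd14 and 0 at pnd28, whose counts cannot be credited to that gene. Without that row the pnd14 sum would be lower and the pnd28 sum the same, so the sums are not read as a steady decline. Akr7a5, which reduces succinic semialdehyde and aflatoxin aldehydes, was at 532.1 CPM at pnd0 (474.5 to 594.7), 430 at pnd7 (384 to 480), 192.1 at pnd14 (149.1 to 243.5), 332.5 at pnd28 (227.4 to 469.4) and 269 at pnd56 (168.4 to 406.7). Its 3 pnd14 runs, at 156.3 to 230 CPM, lay under all 5 earlier runs, at 415.3 to 575.5 CPM, and the log2 ratio of pnd14 over pnd7 was -1.16 (-1.56 to -0.78), or -0.97 without run 7 of pnd14. Stroma marker cells of pnd28 held Akr7a5 above the other cells, which were at 159.1 CPM, by a log2 ratio of 2.05 (0.91 to 3.29). Akr1b10 stayed between 48.8 and 114.3 CPM with no neighbours apart.

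The counts under the name Akr1c19 cannot be credited to that gene. They were the same in all 714 cells as those of Marcksl1-ps4, a processed pseudogene annotated inside Akr1c19 on the same strand, with 97 counts in 52 cells in both rows. They were at 20.6, 47.8, 138.4, 0 and 12.2 CPM, with log2 ratios of 1.21 for pnd7 over pnd0 and 1.54 for pnd14 over pnd7, and at least 4.44-fold lower at pnd28 than at pnd14 by the 3-count floor. The interval of that last ratio ended at -1.80 on the log2 scale, and after thinning the ratio was -0.89, under 2-fold. Marcksl1 itself had 1353 counts. Which of the 3 transcripts gave these reads was not tested.

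The remaining families had few counts. Epoxide hydrolases, led by Ephx4 with 21, 39, 14, 1 and 1 counts, summed to 46.3, 62.8, 39.5, 10.4 and 12.2 CPM. The 6 carboxylesterases, each under 20 counts, summed to 13.7, 19.1, 42.4, 218.2 and 73.3 CPM, and were 5.15-fold higher at pnd28 than at pnd14 as a sum (log2 2.36, 1.34 to 3.42), with Ces2g at 8 counts and Ces2b at 7 at pnd28. The quinone reductases had 1 row, Nqo2, with 20 counts in all. The 3 sulphotransferases had 9 counts, all at pnd0 and pnd7.

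Counts of members are read here against all genes with at least 20 counts over the pair of ages. For pnd7 over pnd0, 30 members were measured, 5 were at least 2-fold higher and 1 was lower, while 4.94% of 5953 genes were higher and 7.61% lower. The 5 were Cyp39a1, Cbr2, Akr1c19, Aldh9a1 and Cyp26a1, on 17 to 78 counts at pnd7, and without the Akr1c19 row, whose counts cannot be credited to that gene, 4 of 29 were higher. Leaving out run 1 of pnd0 or run 10 of pnd7 brought the 5 down to 2, and leaving out run 6 of pnd7, or the smooth muscle marker cells, to 3. The median log2 ratio was 0.15 over the members and -0.03 over all genes.

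For pnd14 over pnd7, 6 of 29 members were higher and 2 lower, against 10.7% of 5553 genes higher and 14.3% lower. Cbr2, Cyp2f2, Cyp2t4, Akr1c19, Ugt1a and Cbr3 were the higher ones, Akr7a5 and Cyp20a1 the lower ones. Without the Akr1c19 row, 5 of 28 were higher. The median was 0.17 over the members and -0.10 over all genes. That of the members was 0.01 without run 10 of pnd7 or with each cell weighted equally, 0.07 after thinning and -0.06 without the cell of the largest count. The lower count depended on which runs or cells were left out. It was 6 without run 3 of pnd14 and 1 without run 7. It was 4 without the Ovgp1 cells or without the stroma marker cells.

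For pnd28 over pnd14, 6 of 23 members were higher and 4 lower, against 11.9% of 3785 genes higher and 23.2% lower. The higher members were Gsto1, Cyp26a1, Gpx1, Cbr2, Gpx3 and Cyp2ab1, and the lower ones Cyp2t4, Akr1c19, Adh5 and Cyp2f2, or 3 of 22 without the Akr1c19 row. The median was 0.13 over the members and -0.23 over all genes. The sign of the members' median was not stable: it was -0.26 without run 7 of pnd14, -0.19 without the stroma marker cells and -0.16 without the cell of the largest count. Without the cells with smooth muscle counts, 3 were higher. Between the same ages the glandular marker list went from 0.00508% to 1.85% of counts, with Prss29 at 11886 CPM at pnd28, and the part of a changed mix of epithelial cells in these ratios was not tested. From the sums over an age alone, fewer cells of a type and less RNA per cell cannot be told apart.

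For pnd56 over pnd28, 2 of 13 members were higher, Gpx3 and Cbr2, and 2 lower, Cyp26a1 and Aldh7a1, against 14.8% of 1797 genes higher and 16.5% lower, so the shares of members were near those of all genes. Over these ages the luminal list went from 0.137% to 1.94% of counts, with Prap1 at 727.3 and 12418 CPM, while the glandular list was at 0.241% at pnd56. Neither list moved as a whole: of 3 luminal genes measured, 2 were at least 2-fold higher and 1 lower. Of 3 glandular genes measured, 1 was higher and 2 lower. The median was -0.24 over the members and 0.06 over all genes, and that of the members was 0.29 after thinning, 0.39 with a minimum of 100 counts and 0.06 without the stroma marker cells.

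For pnd56 over pnd0, 7 of 26 members were higher and 8 lower, against 10.4% of 4667 genes higher and 27.7% lower. The share of lower members was thus near that of all genes. The median was -0.51 over the members and -0.36 over all genes. That of the members was 0.13 after thinning and 0.02 with no minimum. With median-of-ratios scaling, which moves the median of all genes from -0.36 to -0.21, the split was 8 higher and 6 lower, and after thinning 5 higher and 2 lower. Cbr2, Gpx3, Gsto1, Gpx1, Ugt1a, Cbr3 and Aldh9a1 were higher. Of these, only the interval of Aldh9a1, on 6 counts at pnd56, included equal levels (-0.30 to 2.74). For Aldh9a1, 3 of 9 alternatives gave less than 2-fold, down to 0.39 on the log2 scale. The lower ones were Gstz1, Cbr1, Cyp2t4, Adhfe1, Gstk1, Cyp20a1, Cyp39a1 and Ephx4, of which the first 4 had an interval that left out equal levels and the last 4 rested on 1 or 2 counts at pnd56. The 5 comparisons share ages and are not independent of each other.

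**Figure D4:**
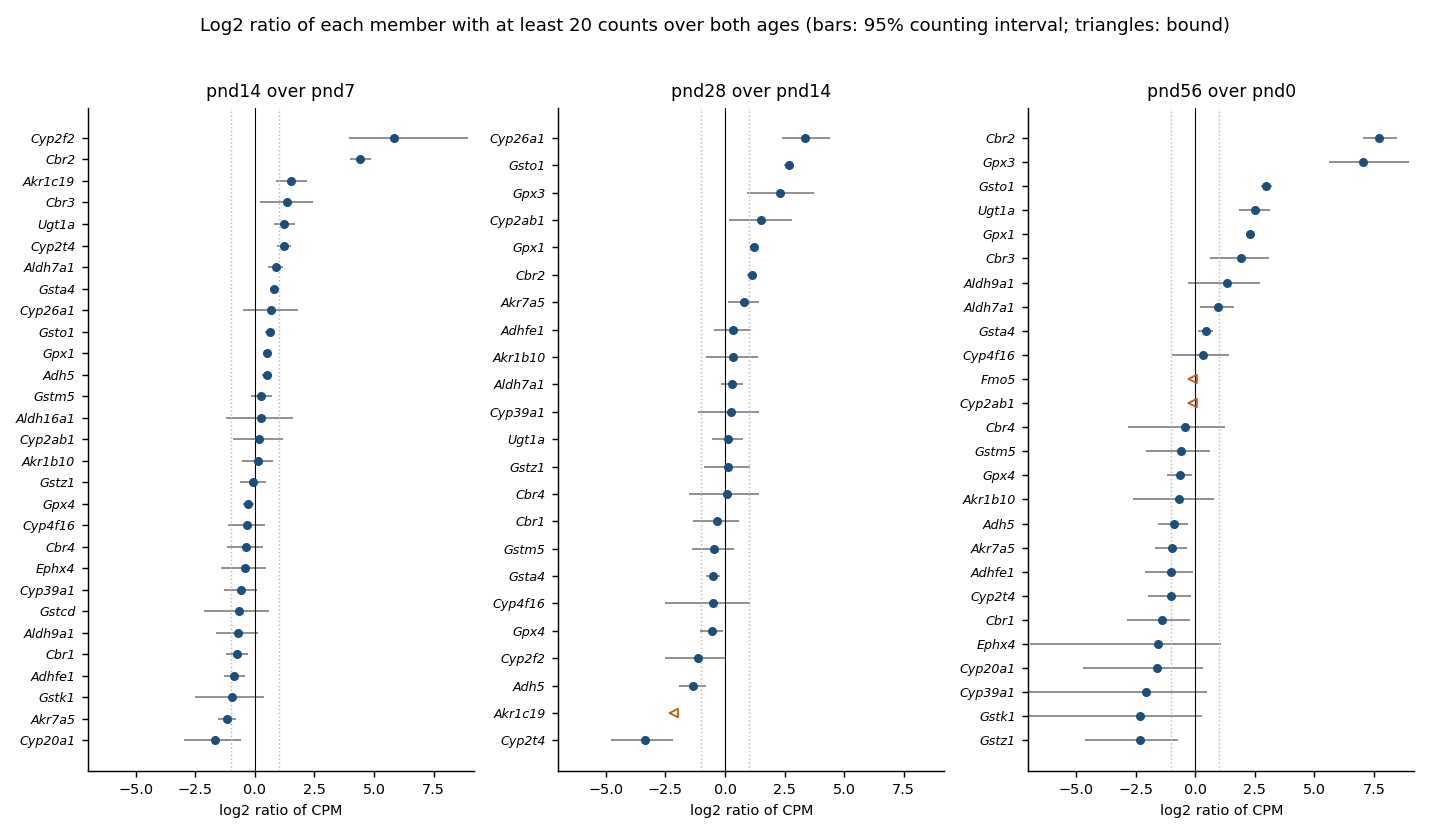
Log2 ratio of CPM for members with at least 20 counts over both ages in 3 of the comparisons; bars are 95% counting intervals, running past the axis where they are wider, triangles are bounds from the 3-count limit and dotted lines mark 2-fold. Cyp2f2 and Cbr2 stood apart at pnd14 over pnd7, Cyp26a1 and Gsto1 led pnd28 over pnd14, and Cbr2 and Gpx3 led pnd56 over pnd0.

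By the age of the highest level, the 20 members with at least 100 counts were spread out: 3 were highest at pnd0, 5 at pnd7, 4 at pnd14, 3 at pnd28 and 5 at pnd56. For 10 of the 20 the highest and the second highest age were not apart. Of all 3388 genes with as many counts, 21.5%, 19.9%, 20.2%, 18.4% and 20.01% were highest at the 5 ages in order. Within glutathione peroxidases, transferases and carbonyl reductases 1 or 2 genes were many times higher at the late ages while the other members together differed by less than 2-fold between pnd0 and pnd56, except that the other peroxidases were at -1.16 on the log2 scale with each cell weighted equally.

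**Figure D5:**
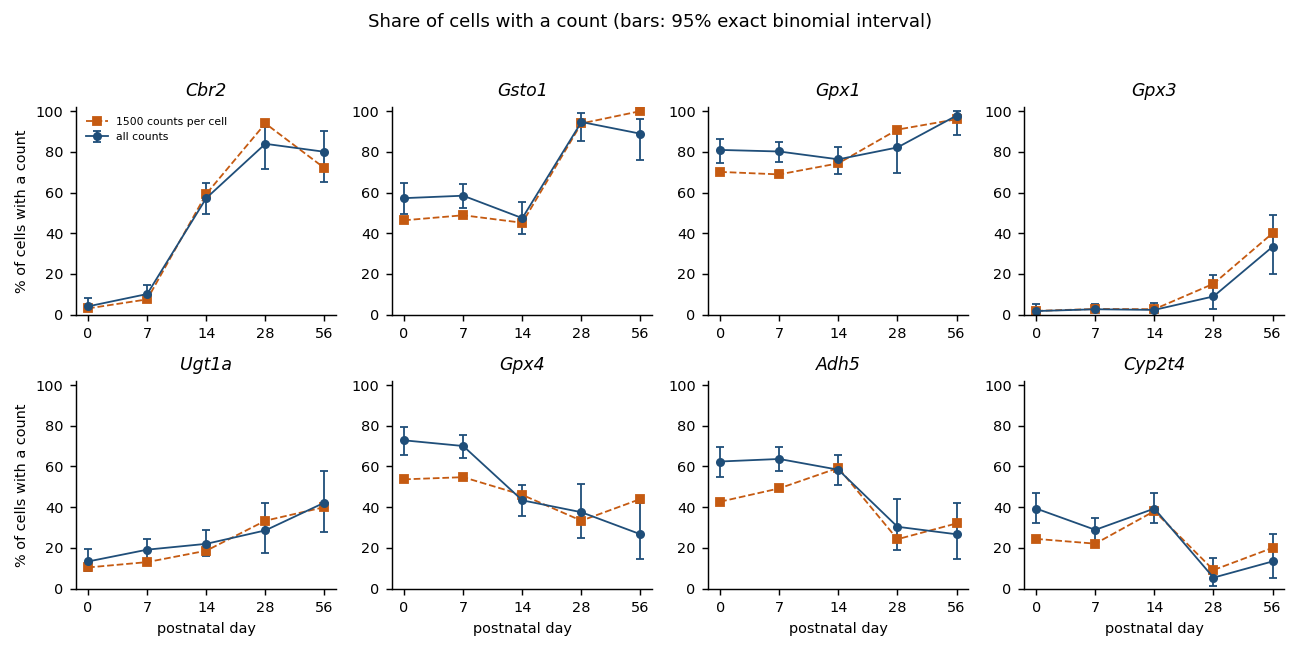
Percent of cells with at least 1 count of 8 members at each age in days, with all counts (circles, 95% exact binomial intervals) and with each cell thinned to 1500 counts (squares). Cbr2 and Gsto1 were in most cells at pnd28 and pnd56, and, with all counts, Gpx4, Adh5 and Cyp2t4 were in fewer cells there than at the earlier ages; the ages are evenly spaced on the axis.

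Partner genes of these pathways were counted by the same 2-fold rule, and no test compared them with the members. Of the glutathione, thioredoxin and NRF2 list, 44 of 54 genes had a row, and 1 of 30 measured was higher at pnd7 than at pnd0 and 0 lower, 7 of 28 higher and 3 lower at pnd14 over pnd7, 4 of 22 and 4 at pnd28 over pnd14, and 0 of 16 and 6 at pnd56 over pnd28. Over all genes the shares higher and lower were 4.94% and 7.61%, 10.7% and 14.3%, 11.9% and 23.2%, and 14.8% and 16.5% in the same order. The metallothioneins Mt1 and Mt2, which bind metals and scavenge radicals, were highest at pnd14: Mt1 was at 1689, 1875, 8640, 2566 and 928.03 CPM and Mt2 at 2236, 2233, 9134, 3117 and 634.97 CPM. Gclc and Gclm, the subunits of the enzyme that starts glutathione synthesis, stayed between 73.3 and 281 CPM. At pnd56 over pnd0, 2 of 24 measured genes of this list were higher and 3 lower, against 10.4% and 27.7% of all genes. Taldo1, a transaldolase that supports NADPH supply, was 1 of the 2 higher ones, at 386.2 CPM at pnd0 and 1111 CPM at pnd56 (log2 1.52).

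Of the cofactor and electron donor list, 41 of 56 genes had a row, and 1 of 17 measured was higher and 7 lower at pnd56 than at pnd0, against 10.4% and 27.7% of all genes. Por, the reductase that feeds electrons to the P450s, was at 350, 454.3, 280, 332.5 and 440 CPM. Cyb5b, a mitochondrial cytochrome, was at 381 CPM at pnd0 and 85.5 CPM at pnd56 (log2 -2.16). Of the xenobiotic receptors and regulators, 18 of 25 genes had a row, and 2 of 10 measured were higher and 2 lower at pnd56 than at pnd0. The oestrogen receptor gene Esr1 was at 17.2, 92.8, 468.9, 374 and 512.9 CPM. Of 16 export transporter genes 13 had a row and at most 2 were measured in a comparison, Abcc1 among them at 160, 210, 200.5, 301.3 and 97.7 CPM.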

How the data were processed

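Uterine epithelial cells of ICR mice were profiled by CEL-seq, per the labels' protocols. The authors deposited a table of counts per gene and cell, whole numbers that are not normalized. The submitters' processing notes name TopHat, Cuffnorm and the build mm9; their versions and roles, any collapsing of molecular tags and the use of strand are not given in the sources used here, and the intervals treat counts as independent. Here 0 columns belonged to no sample. The age came from each cell's label, and no cell was removed. Counts were summed per age and divided by the age's total; sums gave CPM with exact Poisson intervals, ratios used exact conditional binomial intervals and shares Clopper-Pearson intervals, all at 95%. With 1 sample per age no test was run. A member needed 20 counts or more over a pair of ages to be compared, and was called at 2-fold. Members with at least 100 counts, and called members in at least 5% of cells with runs apart, were named, up to 12 in each direction; other names were chosen after their values were seen. The members and lists were chosen with earlier results of these data known. Cells were put in ranges by marker counts, which are not cell types; no clustering and no doublet caller was run. Alternatives were median-of-ratios scaling, thinning to 1500 counts, equal cell weights, other count minimums, an interval rule, leaving out runs, the largest cell or marker cells, and the sum of the Ugt1a rows. Leaving out stroma marker cells was added after seeing the data. Calculations used Python 3.11.15, NumPy 2.4.6, SciPy 1.17.1, pandas 2.3.3 and Matplotlib 3.10.9. The ratio and its interval were tested on simulated Poisson counts, the model that the interval assumes. Those counts held no spread between cells or runs, so the test says nothing about such spread.

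Overlaps and shared 3′ end words of 31 letters over the last 300 bases were taken from GENCODE release M21, promoters from RefSeq (GRCm38.p6).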

Additional observations from a re-analysis of the deposited data

How the results depend on the processing

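Depth limits the late ages most: 3 counts are 31.2 CPM at pnd28 and 36.6 CPM at pnd56, so low members cannot be followed there. No ratio of a single member that was at least 2-fold changed sign under an alternative, but ratios nearer to equal levels did, up to a size of 0.79 on the log2 scale; Gpx4 (pnd56 over pnd0) went from -0.64 to 0.13 after thinning. Of 1270 recomputed ratios of single members, 1196 moved by less than their counting interval and 74 by more, and of 190 recomputed counts and medians 39 moved by more than 1.5 times or past their range. No paired analysis was possible because the labels give each age 1 sample with no animal.

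The counts of members at least 2-fold higher, in the order pnd7 over pnd0, pnd14 over pnd7, pnd28 over pnd14, pnd56 over pnd28 and pnd56 over pnd0, were 5, 6, 6, 2 and 7. With a minimum of 100 counts they were 1, 3, 3, 1 and 3, and with no minimum 9, 17, 15, 7 and 12. The counts lower were 1, 2, 4, 2 and 8; with a minimum of 100 counts they were 0, 1, 2, 0 and 4, and with no minimum 8, 5, 8 and 9 for the first 4. Here the number of members measured changes by construction. The higher count of pnd7 over pnd0 was 3 after thinning, 3 without smooth muscle cells and 3 without the largest cell, and 2 to 5 when a run was left out. The higher count of pnd28 over pnd14 was 3 without smooth muscle cells, and that of pnd56 over pnd28 was 1 without the largest cell. The lower count of pnd14 over pnd7 was 4 without Ovgp1 cells, 4 without stroma marker cells and 1 to 6 when a run was left out. The lower count of pnd56 over pnd0 was 4 with the interval rule, 2 after thinning and 4 to 7 when a run was left out. The lower count of pnd56 over pnd28 was 1 without the largest cell, and that of pnd7 over pnd0 was 0 without Upk3a cells, where Fmo5 (-2.23) went under the 20-count minimum, 2 without stroma marker cells and 1 to 2 when a run was left out. The cause of these shifts was not tested.

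Of 43 ratios past 2-fold, 24 stayed so under all alternatives run for them, among them those of Cbr2 (pnd14 over pnd7, 4.01 to 4.80 on the log2 scale; pnd56 over pnd0, 7.24 to 8.39), Gsto1 (pnd28 over pnd14, 2.50 to 2.82), Gpx1 (pnd56 over pnd0, 2.09 to 2.47), Gpx3 (pnd56 over pnd28, 2.51 to 4.11), Ugt1a (pnd56 over pnd0, 2.14 to 3.01) and Cyp2t4 (pnd28 over pnd14, -3.87 to -3.11). Cbr2 (pnd28 over pnd14) and Ugt1a (pnd14 over pnd7) went as low as 0.95 and 0.72.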
